A study of Mus musculus with 12 samples.

Results

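Ngfr, Gap43, Ncam1, Gfap, S100b, Sox2, Pax3 and Mitf mark immature Schwann cells or the neural crest from which Schwann cells come. The copy number of their DNA was read by comparative genomic hybridisation to arrays, in which labelled tumour DNA and labelled reference DNA compete for oligonucleotide probes. Members were taken as every probe carrying 1 of these 8 names in the scanner files. This gave 19 probes for 7 genes out of 19959 autosomal genes tested, and Gfap had no probe. The tumour DNA came from malignant peripheral nerve sheath tumour (MPNST) cells cultured from P0-GGFβ3 transgenic mice, whose Schwann cells make the GGFβ3 isoform of neuregulin-1 from the P0 promoter. The reference was DNA of cultured wild-type C57BL/6J Schwann cells, which was Cy3 on every array, while tumour DNA was Cy5. No dye swap was made. Of 11 tumours, B76, B86, B91 and B96 arose in C57BL/6J mice, and A18, A202, A292, A382, A390, A394 and 231 Trig arose on a C57BL/6J x SJL/J mixture, called mixed below. Every tumour group therefore carries the transgene, and the reference lacks it. Titles give passages of 5 to 13 for all tumours but 231 Trig, and A382 was hybridised at passages 8 and 9, whose values were averaged; the culture protocol caps the tumour cells at 5 to 8 passages. The labels give neither the age of the mice nor whether tumours shared an animal, so p-values reflect only how far these samples spread. DNA holds no expression of cell type markers, so the cell type on the labels could not be checked against them. Likewise nothing here measures how strongly these genes were used.

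In the developing nerve, neural crest cells become Schwann cell precursors and then immature Schwann cells, which either myelinate large axons or ensheath bundles of small ones. Immature cells carry the neurotrophin receptor p75, GAP-43, NCAM and GFAP, and myelinating cells lose them, whereas S100β is kept as the lineage matures. After nerve injury Schwann cells return to a state with many of these genes active. Sox2 and Pax3 hold back myelin differentiation, and Mitf directs the melanocyte branch of the crest.

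The sequences of 6 probes are given: the 4 called against the chromosome median, described below, and a further probe each of Gap43 and Mitf. They are printed 5′ to 3′ as designed on the array, with G and C in capitals, since GC content affects how brightly a probe hybridises. Coordinates are in build mm9, as in the files.
Ngfr probe 2: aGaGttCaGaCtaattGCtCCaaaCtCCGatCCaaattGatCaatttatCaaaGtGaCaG
Gap43 probe 1: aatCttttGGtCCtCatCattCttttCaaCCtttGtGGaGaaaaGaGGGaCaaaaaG
Gap43 probe 2: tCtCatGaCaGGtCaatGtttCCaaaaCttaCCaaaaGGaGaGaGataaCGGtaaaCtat
S100b probe 1: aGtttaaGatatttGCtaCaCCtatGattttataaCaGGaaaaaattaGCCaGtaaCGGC
Mitf probe 4: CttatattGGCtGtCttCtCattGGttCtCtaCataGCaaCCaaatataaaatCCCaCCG
Mitf probe 6: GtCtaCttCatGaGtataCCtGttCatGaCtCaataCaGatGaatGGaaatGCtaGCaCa
Ngfr probe 2 lies at chr11:95445605-95445664 and has 36.7% GC. The Gap43 probes lie at chr16:42292450-42292506 (36.8% GC) and chr16:42311827-42311886 (36.7% GC). S100b probe 1 lies at chr10:75721348-75721407 and has 31.7% GC. Mitf probes 4 and 6 lie at chr6:97878161-97878220 and chr6:97917847-97917906, both with 38.3% GC. The 19 member probes ranged from 25% to 44.9% GC with a median of 36.7%, the same median as all autosomal probes. No mm9 annotation was used here, so no probe is assigned to an exon or intron.

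Among the members, the ratio of tumour to reference DNA passed the test for Ngfr, which was higher, and Gap43, which was lower. Values are log2 ratios centred on each array's autosomal median, and a gene's value is the mean of its probes. A gene is called, as having risen or fallen, where limma's Benjamini-Hochberg adjusted p, over all genes tested, was under 0.05 and the mean over tumours reached 0.2 in size. In the whole genome 18% of genes rose and 15.5% fell by this rule, so 1 riser and 1 faller among 7 members is close to that background. Ncam1, S100b and Sox2 had adjusted p under 0.05 but means smaller than 0.2, and Pax3 and Mitf did not reach the p threshold. The median of the 7 member means was 0.08, against -0.01 over all genes.

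**Figure D1:**
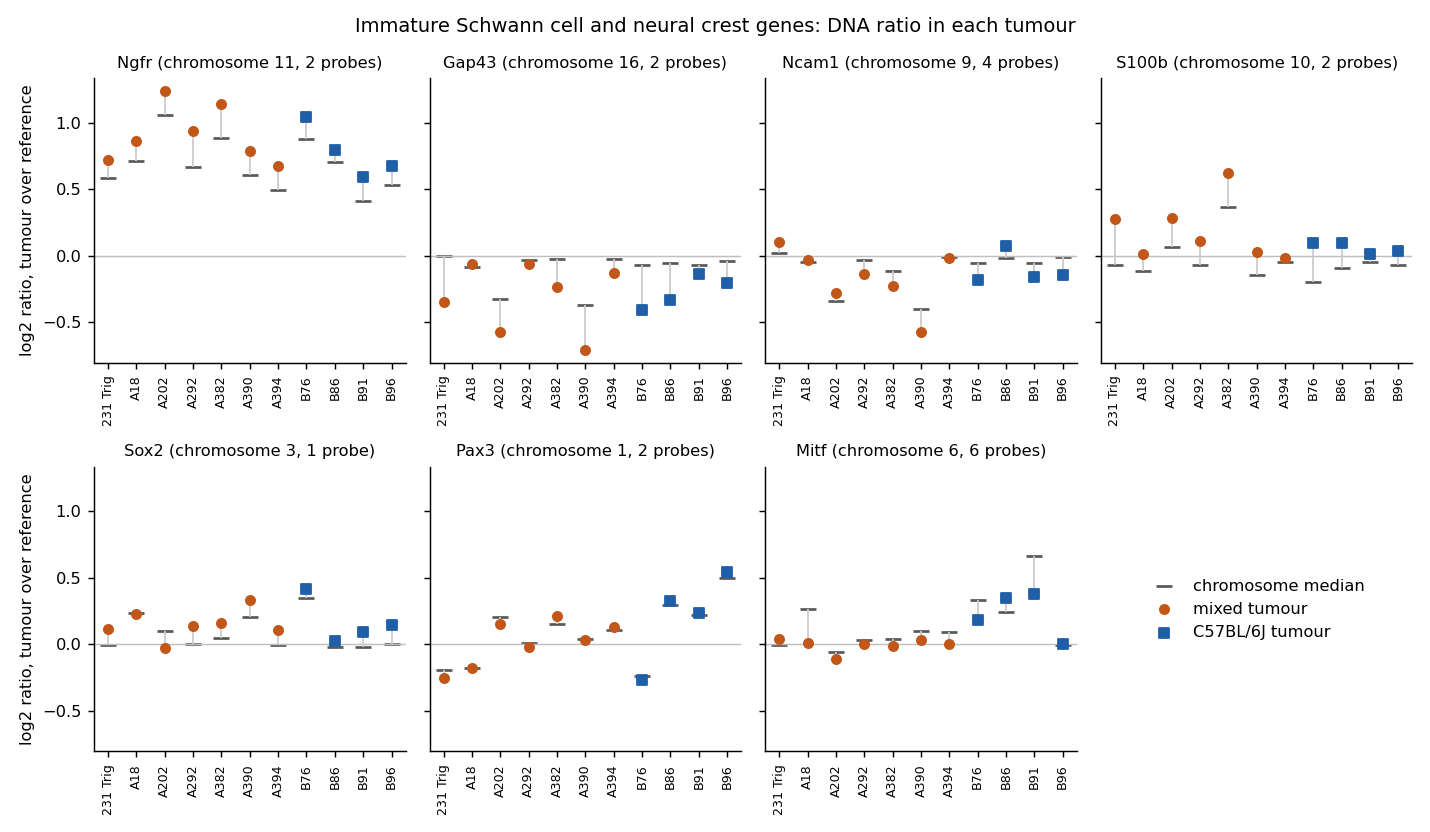
Log2 ratio of tumour over reference DNA for each of the 7 measured genes (coloured points, 1 per tumour, by strain background) with the median of all probes on the gene's chromosome in the same tumour (grey dashes). Ngfr is above 0 in all 11 tumours and Gap43 is below 0 in all 11, while Pax3 runs from -0.27 in B76 to 0.55 in B96 close to its chromosome median.

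Ngfr encodes the p75 neurotrophin receptor, which binds all neurotrophins and marks crest cells and immature Schwann cells. Its ratio was lowest in B91 at 0.59, had a median of 0.80, and was highest in A202 at 1.24. All 11 tumours were high and none overlapped 0. The mean was 0.86 ± 0.21 (SD, n = 11, limma adjusted p 8.24e-09). Most of this height was shared by the chromosome. The median of chromosome 11 averaged 0.69 ± 0.19, and Ngfr lay 0.17 ± 0.05 above it, with a range over tumours of 0.09 to 0.27. The spread between tumours fell from an SD of 0.21 for the ratio itself to 0.05 once the chromosome median of the same tumour was subtracted. The reference channel was also dimmer on this chromosome. Adjusted for GC content, it had a chromosome 11 median of -0.57 ± 0.04 (log2, SD, n = 12 arrays), and the medians of the other autosomes ran from -0.13 to 0.11. These are brightness levels of different probes, and their part in the ratio of Ngfr was not tested. Nxph3 and Phb, the named genes on either side of Ngfr, rose as well, with means of 0.38 ± 0.21 and 0.74 ± 0.20.

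The Ngfr probes disagreed. Each probe was also compared with the median of its 20 neighbouring probes in the same tumour, to set the probe apart from the stretch around it. That stretch varied in width: 420 kb at S100b probe 1 and 562 kb at Ngfr probe 1, but 2065 kb at Mitf probe 4 and 4671 kb at Gap43 probe 1. Ngfr probe 1 (chr11:95431804-95431860) stood at 0.62 ± 0.22, which was 0.01 ± 0.08 from its neighbours (limma adjusted p 0.850). It was dim: only 3.25% of autosomal probes were dimmer in the reference channel, against 41.8% for probe 2. Both probes were well above background on every array. Probe 2 stood at 1.10 ± 0.20. Against its neighbours it was lowest in B76 at 0.44, had a median of 0.52 and was highest in A18 at 0.60. It was above them in 11 of 11 tumours, by a mean of 0.52 ± 0.05 (SD, n = 11, limma adjusted p 6.22e-10). Among all autosomal probes, 97.9% had a smaller mean deviation from their neighbours in size. The interval between the 2 Ngfr probes is 13.7 kb and holds no other probe. Adjusted for GC content, probe 2 averaged -0.27 in the reference channel and 0.84 in the tumour channel (log2, n = 12 arrays). The median of its neighbours was -0.45 and 0.23. For probe 1 the levels were -2.23 and -1.56, beside -0.38 and 0.24 for its neighbours. What each channel contributes to these ratios was not tested.

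Gap43 encodes a growth-cone phosphoprotein of regrowing axons that immature and non-myelinating Schwann cells also make. Its ratio was lowest in A390 at -0.71, had a median of -0.23, and was highest in A18 at -0.06. The mean was -0.29 ± 0.21 (SD, n = 11, limma adjusted p 0.000634). The values in A390 and A202 (-0.57) were the lowest, and in these tumours chromosome 16 was low as well, at -0.37 and -0.33. Over all tumours the chromosome 16 median was -0.10 ± 0.13, so Gap43 lay -0.19 ± 0.13 from it.

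Gap43 probe 1 carried most of this distance. Against its neighbours it was lowest in 231 Trig at -0.72, had a median of -0.35, and was highest in A18 at 0.07. It was below them in 10 of 11 tumours, by -0.37 ± 0.23 on average (SD, n = 11, limma adjusted p 0.000103). Probe 2 was below its neighbours in 11 of 11 tumours but by less, at -0.13 ± 0.09 (limma adjusted p 0.000741), under the size minimum. Probe 1 was among the dimmest on the array: only 0.457% of autosomal probes were dimmer in the reference channel, although it was well above background on every array. With another background correction (normexp on the raw signals) probe 1 was at -0.05 from its neighbours (limma adjusted p 0.423, range over alternatives 1.42e-05 to 0.423) and the gene mean was -0.14, below the size minimum. With a running median of 5 probes the gene mean was -0.10 (limma adjusted p 0.114, range over alternatives 0.000553 to 0.114). The fall of Gap43 therefore did not hold under either setting. The nearest named genes, Lsamp at 0.01 ± 0.16 and the cDNA AK132682 at 0.07 ± 0.22, did not pass the test.

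**Figure D2:**
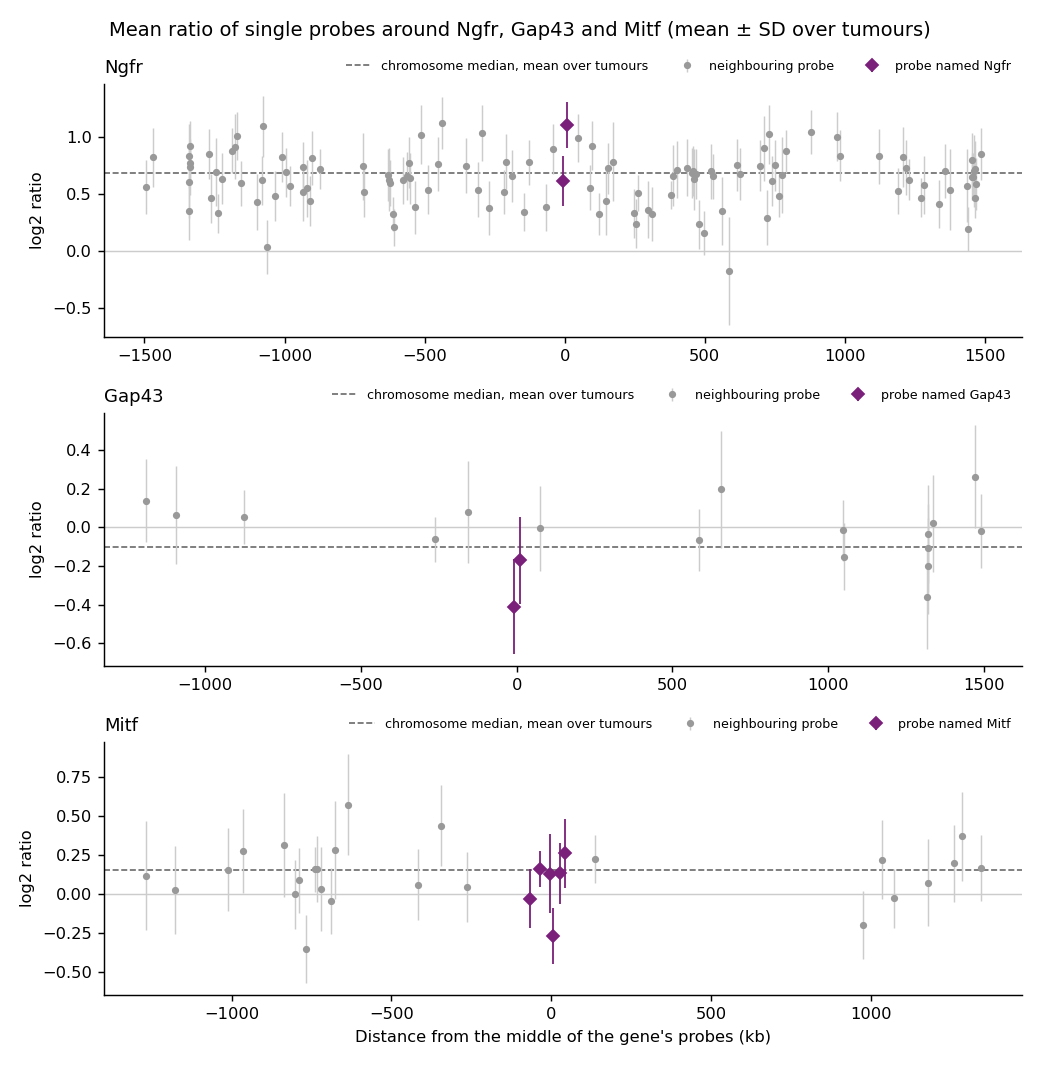
Mean log2 ratio (± SD over tumours) of each probe in the surroundings of Ngfr, Gap43 and Mitf, by distance from the middle of the gene's probes. Purple diamonds are probes of the gene, grey points are other probes, and the dashed line is the chromosome median. Around Ngfr nearly all probes lie above 0, with Ngfr probe 2 at 1.10 among the higher ones, whereas Gap43 probe 1 at -0.41 and Mitf probe 4 at -0.27 lie below the probes next to them.

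Ncam1 encodes the neural cell adhesion molecule, which immature Schwann cells display and myelinating cells lose. Its 4 probes span 264 kb of chromosome 9 (chr9:49328738-49592552). The ratio was lowest in A390 at -0.58, had a median of -0.15, and was highest in 231 Trig at 0.10. Only A390 and A202 (-0.28) lay below -0.25, and these tumours had chromosome 9 medians of -0.40 and -0.34. The mean was -0.14 ± 0.19 (SD, n = 11, limma adjusted p 0.0348), with 9 of 11 tumours below 0. None of the 4 probes was called against its neighbours, whose mean differences ran from -0.13 for probe 3 to -0.03 for probe 1. Probe 4, with the lowest GC content of the members at 25%, was not well above background on 1 array, and its deviation spread from -0.34 in A390 to 0.35 in A202. Without the 4 arrays of slide 1, which a different scanner had read, Ncam1 passed the test at -0.21 (limma adjusted p 0.0170).

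Gfap, the intermediate filament of astrocytes and of immature and non-myelinating Schwann cells, was not measured. By the gene order of the GRCm38.p6 annotation it lies between Ccdc103 and Kif18b, whose probes on chromosome 11 are 21.6 kb apart in mm9. Ccdc103 stood at 0.44 ± 0.14, from 0.21 in B91 to 0.68 in A202. Its 3 probes disagreed, with means over tumours from 0.02 to 0.96. Kif18b stood at 0.56 ± 0.23, from 0.39 in B91 to 1.17 in A202, with means of 0.41 and 0.71 for its 2 probes. Both flanks lay within the raised segment of every tumour, which averaged 0.68. As means of their probes both were below the chromosome 11 median, by -0.24 ± 0.07 and -0.12 ± 0.14. The highest probe of each was above that median, which averaged 0.69, so this position depends on the probe. Both genes lie on the chromosome with the dimmer reference channel, whose part in their ratios was not tested.

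S100b encodes the calcium-binding protein S100β, a standard stain for Schwann cells. Its ratio ran from -0.02 in A394 to 0.62 in A382, with a median of 0.09. A382 stood apart, and there the median of chromosome 10 was also high at 0.36. The higher values in 231 Trig (0.28) and A202 (0.28) were not shared by the chromosome, and both came from probe 1, at 0.48 in each of these tumours, whereas probe 2 was at 0.08 in each. The mean of the gene was 0.14 ± 0.19 (SD, n = 11, limma adjusted p 0.0406). It was 0.09 without A382 (limma adjusted p 0.0821) and 0.01 with the running median (limma adjusted p 0.830, range over alternatives 0.0167 to 0.830). Probe 1 was 0.24 ± 0.16 above its chromosome median (limma adjusted p 0.000430), which passed the test, and 0.16 ± 0.15 above its neighbours, which did not reach 0.2. Without slide 1, which holds 231 Trig and A202, the distance of probe 1 from the chromosome median was 0.15 and below the size minimum.

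Sox2 encodes a transcription factor that keeps progenitors undifferentiated and blocks myelination. Its single probe was lowest in A202 at -0.03, had a median of 0.14, and was highest in B76 at 0.42. B76 and A390 (0.33) were the highest, and their chromosome 3 medians were 0.35 and 0.20, with A18 at 0.23 for both gene and chromosome. The mean was 0.16 ± 0.13 (SD, n = 11, limma adjusted p 0.00591), with 10 of 11 tumours above 0, and 0.08 ± 0.08 above the chromosome median. It passed the size minimum without slide 1 at 0.20 (limma adjusted p 0.00637) and with normexp at 0.21 (limma adjusted p 0.00707, range over alternatives 0.00231 to 0.127).

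Pax3 encodes a paired-box factor of the crest and of immature Schwann cells. Its mean of 0.08 ± 0.25 (SD, n = 11, limma adjusted p 0.315) joined tumours of opposite sign, and it was 0.04 without B96. The ratio was -0.27 in B76, -0.25 in 231 Trig and -0.18 in A18, and 0.55 in B96, 0.33 in B86 and 0.23 in B91. Pax3 followed chromosome 1 in each tumour, with an SD of 0.04 for the difference from the chromosome median against 0.25 for the ratio. That difference ran from -0.06 in 231 Trig to 0.06.

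Mitf encodes the factor that directs melanocyte fate. Its 6 probes span 112 kb (chr6:97805569-97917906). The ratio was lowest in A202 at -0.11, had a median of 0.01, and was highest in B91 at 0.38, followed by B86 at 0.35 and B76 at 0.18. The mean was 0.08 ± 0.16 (SD, n = 11, limma adjusted p 0.180), and it was 0.05 without B91 or without B86. In B91 the gene lay -0.29 from its chromosome median of 0.67. Its probes did not move together: probe 6 was at 0.26 ± 0.22 and probe 4 at -0.27 ± 0.18. Probe 4 was below its neighbours in 9 of 9 tumours, by -0.43 ± 0.27 (limma adjusted p 0.000433), from -0.85 in B91 to -0.07 in A382. Its spots in 231 Trig and B86 carried the scanner software's outlier flags and were set to missing. The other 5 Mitf probes were not called against their neighbours, with means from -0.16 to 0.10.

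Of all 19 member probes, 1 was higher than its neighbours by the same rule (Ngfr probe 2) and 2 were lower (Gap43 probe 1 and Mitf probe 4), while 16 were not called. Over all autosomal probes 13.5% were higher and 14.9% lower, so the members' counts are near the background. Against the chromosome median 2 member probes were higher, Ngfr probe 2 at 0.42 and S100b probe 1 at 0.24, and 2 were lower, Gap43 probe 1 at -0.31 and Mitf probe 4 at -0.43. Here the background was 13.9% higher and 15.3% lower. The noise between adjacent probes had an SD of 0.180 to 0.246 per tumour. Ngfr probe 2 in 1 tumour, Gap43 probe 1 in 2 and Mitf probe 4 in 2 deviated from their neighbours by more than 3 such SD, and no other member probe did. The share of all autosomal probes beyond this cut-off was not taken, so these counts stand without a background.

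**Figure D3:**
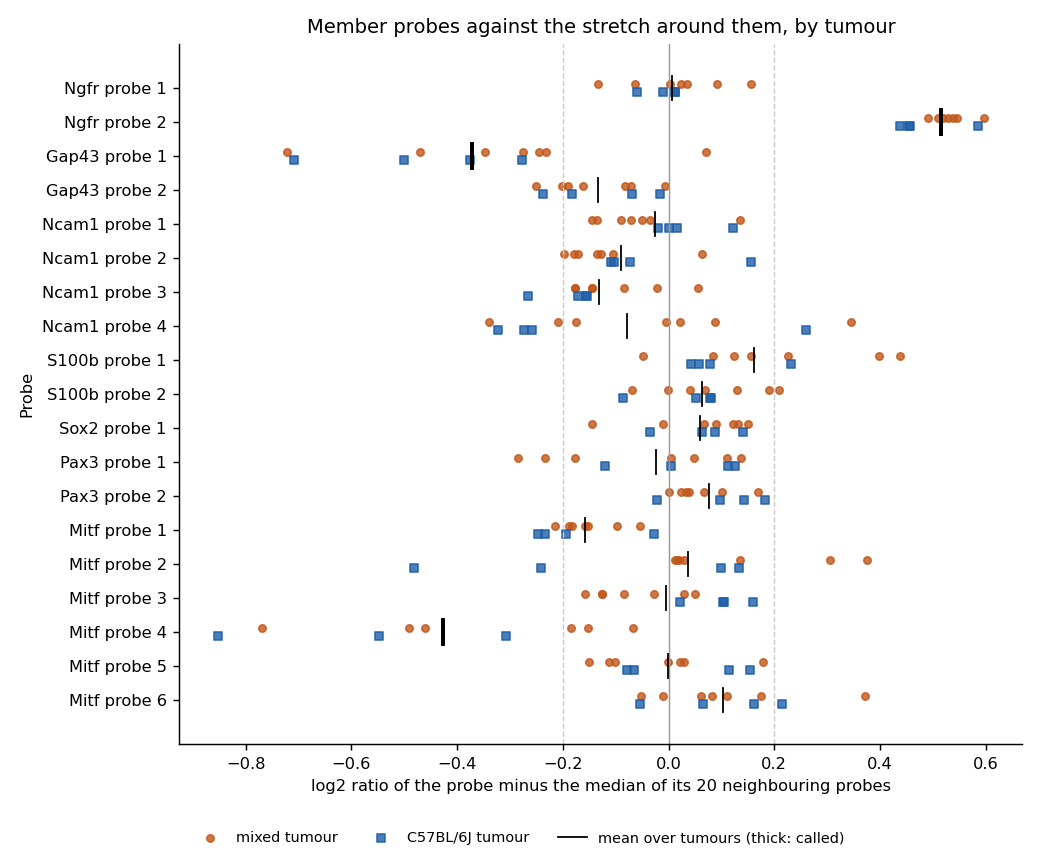
Log2 ratio of each of the 19 member probes minus the median of its 20 neighbouring probes (horizontal axis), with 1 point per tumour and a bar at the mean. Dashed lines mark the size minimum of 0.2. The points of Ngfr probe 2 cluster between 0.44 and 0.60, whereas those of Mitf probe 4 spread from -0.85 to -0.07 and those of Gap43 probe 1 from -0.72 to 0.07.

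Segmentation gave the stretches of each tumour whose ratio to the single reference was changed across a member. Segments were found by penalised least squares and called at a mean log2 ratio of at least 0.2 in size. Of 77 pairs of member and tumour, 28 lay in a called segment, 21 gains and 7 losses. Over all pairs of gene and tumour, 20% lay in gains and 7.51% in losses. Ngfr accounted for 11 of the gains, in stretches of 46.5 Mb to 113 Mb whose means ran from 0.41 in B91 to 1.05 in A202. All of these lie on chromosome 11, where the reference channel was dimmer, with a GC-adjusted median of -0.57. The part of the reference in these gains was not tested. The 66 other pairs held 10 gains and 7 losses, beside 13.3% and 8.14% of all pairs off chromosome 11, so the members' shares are near the background. Losses over Gap43 and Ncam1 occurred in the same tumours, A202 and A390: at Gap43 the segment means were -0.30 and -0.48 over 62.0 Mb and 63.3 Mb, and at Ncam1 they were -0.34 and -0.41 over 121 Mb. S100b lay in a gain in A382 alone, at 0.35 over 76.1 Mb. Sox2 lay in gains of 156 Mb in B76 (0.34) and A390 (0.20, at the threshold).

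Pax3 was the member with calls in both directions, with gains in B86 (0.29), B91 (0.22) and B96 (0.50) and losses in A18 (-0.21), 231 Trig (-0.20) and B76 (-0.25). Mitf lay in gains in A18 (0.26), B86 (0.24), B91 (0.63) and B76 (0.32), of 76.6 Mb to 146 Mb. The shortest called segment over any member, at Ngfr in A18, was thus 46.5 Mb long, and none was limited to a member and its close neighbours. A segment had to hold at least 5 probes, and of the members only Mitf, with 6, has that many. A change confined to the probes of any other member could therefore not form a segment of its own. Tumours differed in how many measured members were covered, from 1 of 7 in A292 and A394 to 4 of 7 in A390 and B76. Ngfr, called in every tumour, is in each of these counts. The share of all genes in called segments was not taken by tumour, so the counts are not read as a trait of the members.

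**Figure D4:**
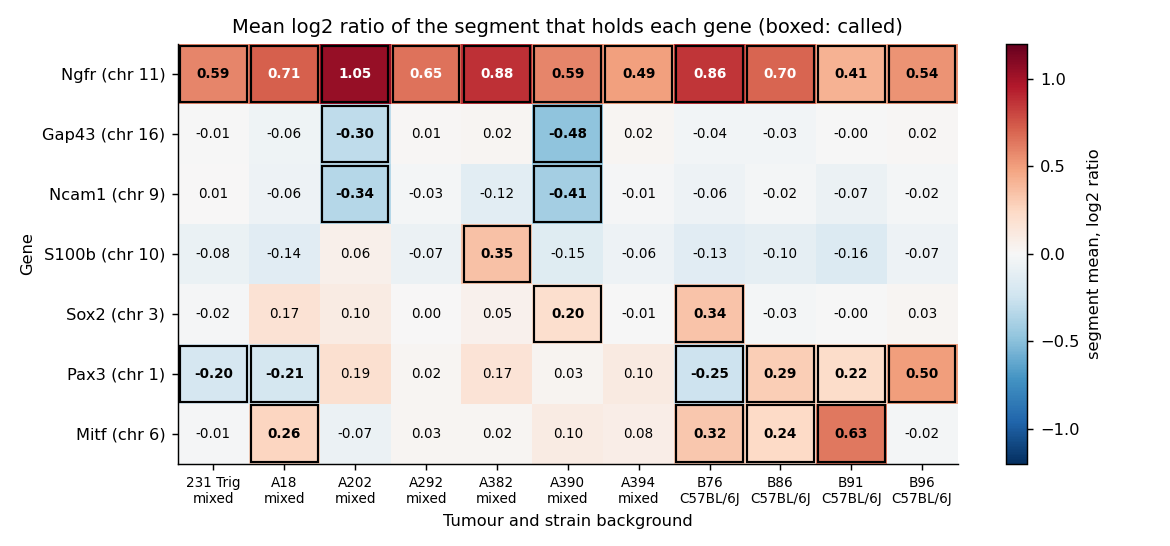
Mean log2 ratio of the segment that holds each measured gene (rows) in each tumour (columns, with strain background). Boxed bold cells are called at 0.2 in size: all 11 at Ngfr, 2 losses each at Gap43 and Ncam1, and calls in both directions at Pax3. The calls at Ngfr lie on the chromosome with the dimmer reference channel.

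Strain background was the factor by which the labels group the tumours. No member gene passed the limma test of mixed against C57BL/6J tumours (0 of 7, with 1 at an unadjusted p under 0.05), and 0.015% of all genes, 3 in number, did. At an unadjusted p under 0.05 there were 2051 genes, or 10.3%. Mitf had the lowest p among members: the mean was -0.01 ± 0.05 in 7 mixed tumours and 0.23 ± 0.17 in 4 C57BL/6J tumours, a difference of -0.23 with a standard error of 0.08 (limma p 0.0134, adjusted p 0.485, range over alternatives 0.192 to 0.748). Pax3 had a mean of 0.01 ± 0.17 in mixed tumours and of 0.21 ± 0.35 in C57BL/6J tumours, and differed by -0.20 with a standard error of 0.14 (limma adjusted p 0.567). Ngfr differed by 0.13 and S100b by 0.13, with standard errors of 0.12 and 0.11 (limma adjusted p 0.645 and 0.632). Gap43, Ncam1 and Sox2 differed by -0.03, -0.06 and -0.02, with standard errors of 0.12, 0.11 and 0.09. With so few C57BL/6J tumours, even differences well beyond these standard errors could be missed. That of Mitf, -0.23 with a standard error of 0.08, did not pass. On single probes, and on probes minus their neighbours, tests added after the data had been seen, no member probe passed limma's test either, beside 0.0417% and 0.113% of all probes. At an unadjusted p under 0.05 there were 4 and 2 of 19, beside 9.37% and 7.17% of all probes. The 4 single probes were Mitf probes 1, 3, 5 and 6, so they come from 1 gene. Minus their neighbours, these probes differed between backgrounds by 0.03, -0.16, -0.05 and 0.01.

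In A382 the values at passages 8 and 9 were close. The largest difference between passages was 0.09 for a member gene (Ngfr, 1.10 and 1.19) and 0.20 for a member probe (Ncam1 probe 3, -0.37 and -0.18), beside an SD of 0.10 over all autosomal probes.

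Related genes were described through 5 lists with 76 names, of which 63 had autosomal probes, 13 rose, 14 fell and 36 were not called. Among partners of Ngfr (neurotrophins and their receptors and co-receptors), 1 of 8 rose and 1 fell, with a median of 0.02. The neurotrophin gene Ntf3 was at 0.33 ± 0.26 and the neurotrophin gene Bdnf at -0.24 ± 0.11. The call on Bdnf did not hold with normexp (-0.19) or the running median (-0.17). The receptor genes Ntrk2 (-0.07) and Ntrk3 (0.14) did not pass. These counts stand beside the genome-wide 18% and 15.5%.

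Of 22 crest specifiers and factors of immature Schwann cells, 2 rose and 9 fell, and the median was -0.10 against -0.01 over all genes, of which 18% rose and 15.5% fell. Sox9, a crest specifier, was at 0.64 ± 0.21 and lies on chromosome 11, -0.04 from its chromosome median. Those lowest were Snai1 (-0.42 ± 0.19) and Zic1 (-0.36 ± 0.16), both transcription factors of the crest or its border, and Egr1 (-0.36 ± 0.22), the immediate early factor also known as Krox24. Each of these 3 had 1 probe. Under mode centring 4 of the 22 rose and 7 fell, beside 20.7% and 12.0% of all genes. With the running median 3 rose and 8 fell, beside 13.4% and 7.95%. Without slide 1, 4 rose and 9 fell, beside 18.7% and 15.1%. Snai1, Zic1 and Egr1 kept their calls with the running median (-0.29, -0.20 and -0.25).

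Adhesion and growth-cone genes had 6 of 11 higher and 1 lower, with a median of 0.20, beside the 18% and 15.5% of all genes. Chl1, a relative of L1, was at 0.34 ± 0.23. Nfasc, which encodes the axonal and glial adhesion protein neurofascin, was at 0.30 ± 0.22. St8sia2, which makes the polysialic acid carried by NCAM, was at 0.28 ± 0.20. Cdh2, the N-cadherin gene, was at -0.33 ± 0.16. After smoothing by the running median, 2 of the 11 rose and 0 fell, beside 13.4% and 7.95% of all genes under that setting. Without slide 1, 3 rose and 1 fell, beside 18.7% and 15.1%. Only Chl1 of these 4 kept its call with the running median (0.26).

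Among intermediate filament and S100 genes 3 of 9 rose and 1 fell, beside 18% and 15.5% of all genes. The vimentin gene Vim was at -0.29 ± 0.13, the neurofilament gene Nefl at 0.27 ± 0.25, S100a11 at 0.26 ± 0.21 and S100a10 at 0.20 ± 0.16. S100a10 was at 0.19 with loess, below the size minimum. Each rests on 1 probe. None of the 9 genes was called with the running median, under which 13.4% of all genes rose and 7.95% fell. In the melanocyte and enteric list 1 of 13 rose and 2 fell, beside the same 18% and 15.5% of all genes. Tfec, a relative of Mitf on the same chromosome, was at 0.41 ± 0.23. The melanocortin receptor gene Mc1r was at -0.28 ± 0.18 and the pigment enzyme gene Dct at -0.28 ± 0.17. Dct was at -0.20 with the running median and did not pass.

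The genes whose ratios varied most like those of the members over the 11 tumours were found by Pearson's correlation and are given as a description, since ratios of an array share its segments and its reference. On the same chromosome at least 10 Mb away these were Wfdc21 for Ngfr (r 0.99), Uts2b for Gap43 (0.92), Fbxw15 for Ncam1 (0.98), Wdr63 for Sox2 (0.97), Spp2 for Pax3 (1.00) and Sval3 for Mitf (0.96). On other chromosomes Gap43 on chromosome 16 varied most like Tmprss5 (0.94) and Myo6 (0.93) on chromosome 9. Conversely Ncam1 on chromosome 9 varied most like Sim2 (0.96) and Igsf11 (0.96) on chromosome 16. Both pairings include the losses of these chromosomes in A202 and A390. For Ngfr the genes were Pcsk4 and Lsm7 (0.83 each), for S100b Cacng4 (0.80) and Krt10 (0.79), and for Sox2 Rhou (0.96) and Zdhhc7 (0.95). Pax3 varied most like L1td1 (0.94) and Thoc3 (0.89), and Mitf like Ubxn11 (0.91) and Atp6v1g2 (0.85).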

How the data were processed

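The deposited files hold 12 arrays with log10 ratios and the intensity of each channel, per the file headers. Agilent Feature Extraction 9.5 and build mm9 are named in the submitters' processing notes. The series value table held the same deposited log10 ratios, with a largest difference of 0. Ratios were converted to log2, flagged spots (0.0604% to 1.99% per array) and controls were left out, spots were averaged to 42404 probes, and each array was centred on its autosomal median. Of 228 member spots, 2 were missing, 1 was not well above background and 0 were saturated. Median brightness was 1005 to 1192 in the reference channel, and the number of arrays limits precision. Gene names came from the files and from RefSeq accessions, which matched for 28951 of 29337 probes. Tests used limma 3.58.1 in R 4.3.3 over all genes or probes, and were tested on simulated data. Segments had a penalty of 40 noise variances and at least 5 probes. Other steps used matplotlib 3.10.9, pandas 2.3.3, numpy 2.4.6 and Python 3.11.15. Members and lists were chosen with earlier results of these data known. Named were all members, up to 4 called genes per list with the largest mean in size, the nearest named gene on each side, and the genes with the highest correlation; some genes that this rule or the lists take in are not reported here. Alternatives were background correction (normexp, offset 50), loess, flags, dim probes, centring, smoothing, passage, slide, strain, neighbours, thresholds and leaving out each tumour.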

Additional observations from a re-analysis of the deposited data

Results flagged for a closer look

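By Dixon's criterion 9 of 51 groups of tumours held a value far from the others, where chance gives about 1 in 20. Of these, 6 concern Ncam1. The gene ratio of B86 was 0.07 among C57BL/6J tumours, the next value being -0.15. Against its neighbours, Ncam1 probe 1 was at 0.13 in 231 Trig. Probe 2 was at 0.06 in A18 and at 0.16 in B86. Probe 3 was at -0.27 in B96, and probe 4, the dim one, was at 0.26 in B86. The others were the Mitf ratio of A202 among mixed tumours (-0.11), Ngfr probe 2 against its neighbours in B96 (0.59), and S100b probe 2 against its neighbours in B86 (-0.09). Of the 9 values, 7 belong to the tumours of slide 1 (A18, 231 Trig, B86 and A202), whose adjacent-probe noise was at least 0.204, above the highest of the other tumours (0.203). The part of slide in these values was not tested.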

How the results depend on the processing

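Of 7 members, 2 passed the test against 0. This count was 4 without slide 1 (33.8% of all genes), 1 with the running median (21.4%), 5 with a size minimum of 0.1 (52.4%) and 1 with a size minimum of 0.3 (17.9%), against 33.5% of all genes in the main setting. Probes called against their neighbours numbered 3 of 19, but 5 with 10 neighbours (28.6% of all probes) and 8 with a size minimum of 0.1 (56.0%). Those called against the chromosome median numbered 4, but 7 with a size minimum of 0.1 (56.6%). The lowest count over its 24 alternatives was 3, where the share of all probes ran from 12.6% to 56.6%. Leaving out each tumour in turn kept the main counts at 2, 3 and 4, with 0 strain calls. A count can stay while its members change. With normexp 2 genes passed (37.1% of all genes), but Sox2 (0.21) replaced Gap43 (-0.14). Gap43 probe 1 was not called against its neighbours with normexp either (-0.05). Ngfr passed under all 27 alternatives, from 0.78 to 0.91. Signs turned for values that were not called in the alternative: Mitf in mixed tumours only (-0.0060), and Gap43 probe 1 against its chromosome with normexp (0.015). Strain differences also turned, none of them called. For Sox2 the value was 0.065 with the running median and 0.0075 with slide as a block, and leaving out each tumour gave -0.070 (without B86) to 0.061 (without B76), also turning without A202. For Gap43 this range was -0.077 (without B76) to 0.037 (without A390), turning also without A202 or B91, and for Ncam1 it was -0.11 (without 231 Trig) to 0.0054 (without A390). Pairs of member and tumour in called segments, 28 in the main setting, ranged from 20 to 38 over 7 alternatives. The share of all pairs was not taken under these alternatives, so this range stands without a background. Mode centring moved the share of called genes that were higher from 53.8% to 63.4%, and the running median moved it to 62.8%. No paired analysis by replicate was made, since the labels give the tumours no shared replicate numbers, and the slide served as the block. The absence of a dye swap and the single reference limit every ratio against 0.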
